A study of Bombyx mori with 8 samples.

Results

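The reproducible G-quadruplex regions of the fat body of the silkworm, Bombyx mori, are described here. A G-quadruplex (G4) is a DNA structure in which runs of guanines stack into planar quartets, and G4s are known for their occurrence in promoters and other regulatory DNA. The fat body is the main metabolic organ of an insect. It stores fat and glycogen and makes most proteins of the haemolymph, the insect's blood. The regions were chosen by merging the peak lists of the fat body libraries wherever peaks shared at least 1 bp, and keeping each merged region that holds a peak of both replicates. This gave 4143 regions out of 10276 merged fat body regions (40.3%), and out of 41892 regions merged over the 4 lists of the series used here. The peak calls themselves chose the regions, so their folds, widths and agreement are given as a description, with no test.

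The study mapped G4s by CUT&Tag, in which an antibody holds a Tn5 transposase at its target and the enzyme inserts sequencing adaptors into DNA nearby. Each fat body library (replicates 1 and 2) is labelled as wildtype, strain P50, stage code L5D3, antibody BG4, and so is each of the brain libraries that serve here as context. BG4 is a single-chain antibody fragment raised against G4 structures. An IgG control of brain and fat body, brain at the stage coded P0, and BmN, a line of ovarian cells, were not analysed here, so places that give peaks whatever the antibody could not be told apart from G4 sites. Whether the replicates came from separate animals is not stated, and their spread may be technical.

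The fat body lists go against their labels in the text of their peak names. All 8556 names of replicate 1 and all 5894 of replicate 2 hold 1H6, the name of a different antibody against G4 structures, and none holds BG4. The names of replicate 1 carry the stage text 5l4d, those of replicate 2 the letter W in that place. In brain, the names of replicate 1 hold BG4, and those of replicate 2 hold neither BG4 nor 1H6. All 33925 names of brain replicate 2 carry the stage text as 5L4D, and the 6759 of brain replicate 1 carry 5L-4D, so it is not particular to fat body. Whether the fat body replicates share a stage cannot be checked from their names, so a difference of stage cannot be told apart from their spread. Neither list can be left out without losing the rule of selection, so values are also given for each replicate alone. Tissue cannot be checked from peak lists, which hold no expression. Coordinates are 1-based, in the assembly of the lists; the sources used here do not name its build. Its 28 long sequences are called by their numbers. No genome sequence or gene annotation of that assembly was used here, so regions are given without bases or genes.

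The fat body regions were mostly simple pairs of peaks, short, and far apart. Of the 4143 regions, 4112 join 1 peak of each replicate, 20 join 2 peaks of replicate 1 with 1 of replicate 2, and 11 the reverse. They cover 3176 kb. The median width was 693 bp (mean 767 ± 331, SD over regions), the narrowest was 293 bp and the widest 3465 bp, and 80% lie between the 10th and 90th percentiles of 430 and 1187 bp. The peaks inside them were narrower, with a median of 607 bp in replicate 1 and 562 bp in replicate 2, since a merged region spans both. Width and fold were nearly unrelated across regions (Spearman rho 0.07 between width and the geometric mean of the folds; regions share their libraries and are not independent).

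Peaks that recurred were the stronger and wider peaks of each list. Replicate 1 had 4163 of its peaks in reproducible regions (48.7%, exact binomial 95% interval 47.6% to 49.7%) and replicate 2 had 4154 (70.5%, interval 69.3% to 71.6%); these intervals cover counting error only. By bases, 54.7% and 75.4% of the covered length lay in such peaks. The authors' fold enrichment, which is the height of a peak's summit over the local background of the peak caller, had a median of 6.06 in replicate 1 peaks that recurred and 4.33 in those that did not. In replicate 2 the medians were 7.43 and 5.75. Peaks with a fold of 10 or more made up 8.12% of recurring and 0.478% of other replicate 1 peaks, and 21.5% against 3.51% in replicate 2. Recurring peaks were also wider, with medians of 606 against 458 bp in replicate 1 and 561 against 430 bp in replicate 2.

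The share that recurred went up in steps along every measure of peak size. With each list cut into 10 equal bins by fold, it was 17.2% in the lowest and 87.3% in the highest bin of replicate 1, and 45.9% and 95.8% in replicate 2. By width it went from 26.2% to 70.1% and from 52.2% to 91.4%. By summit pileup, the number of fragments stacked at the summit, it went from 22.5% to 75.9% and from 45.1% to 96.9%. Local background behaved differently in the replicates. The share was 49.3% in the lowest and 47.4% in the highest background bin of replicate 1, and 61.2% and 88.0% in replicate 2. The lowest background value was shared by 14.2% of replicate 1 and 13.6% of replicate 2 peaks, so ties cut the lowest bin. The bin above it had 41.7% in replicate 1 and 59.8% in replicate 2. Read totals are not known for either list.

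**Figure D1:**
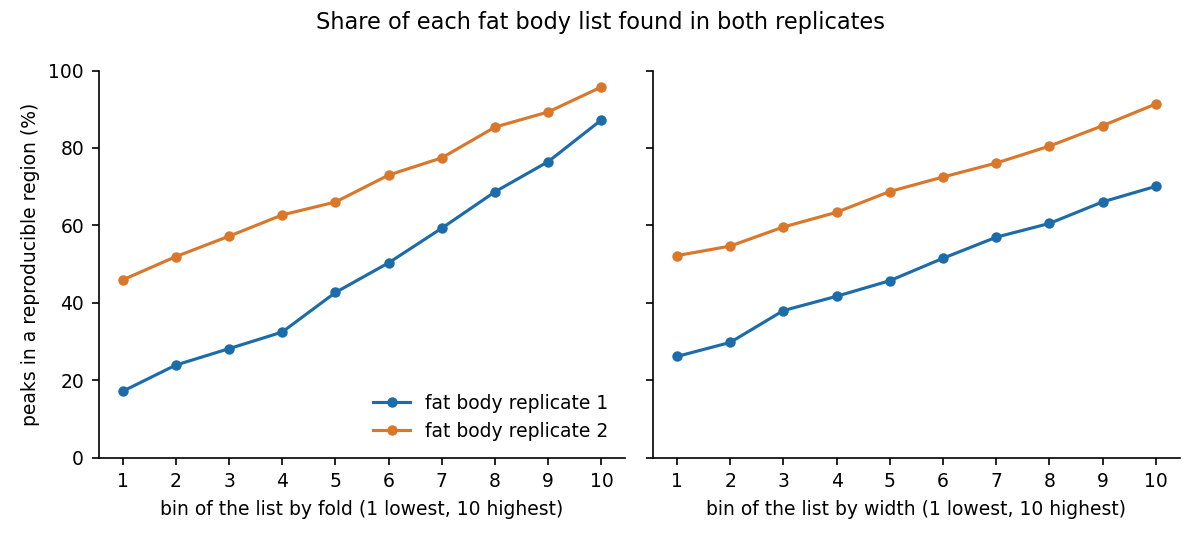
Share of peaks that lie in a reproducible region (vertical axis, %), for fat body replicates 1 and 2, in 10 equal bins of each list by fold (left) and by width (right). The share goes from 17.2% to 87.3% by fold in replicate 1 and from 45.9% to 95.8% in replicate 2, and replicate 2 lies above replicate 1 in every bin shown.

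Within the regions, the replicates' peaks mostly shared over 60% of their combined span, with few identical ends. The overlap of the replicates' strongest peaks was a median of 476 bp, or 76.2% of their combined span, and 80% of regions had between 43.5% and 95.8%. Summits lay a median of 58 bp apart. They were within 10 bp in 1055 regions (25.5%), within 100 bp in 2725 (65.8%) and within 250 bp in 3706 (89.5%), and 274 regions (6.61%) had the same summit base. Starts were identical in 339 regions and ends in 276, and both in 34. The replicate 2 peak lay wholly inside the replicate 1 peak in 1496 regions, and the reverse held in 963. Over the whole lists, 2221 kb were covered by both, a Jaccard index (shared over combined bases) of 0.349.

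The rule of selection was rarely decided by a few bases. Only 8 regions rest on an overlap under 50 bp, and only 1 pair of single-replicate peaks lay within 50 bp without touching. Just inside the rule, with 9 bp in common, were the regions at 7742313 to 7744616 of sequence 10 (folds 3.38 and 3.95 in replicates 1 and 2), 10865225 to 10866263 of sequence 18 (2.84 and 6.62) and 4582568 to 4583932 of sequence 21 (4.66 and 9.15). Just outside was a pair of peaks 17 bp apart between 2879801 and 2881064 of sequence 5, with folds of 2.91 and 5.87. In all, 47 pairs of single-replicate peaks lay within 1 kb of each other.

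Fold ranked the regions similarly in the replicates, on different scales. Folds ran from 1.85 to 31.3 in replicate 1 with a median of 6.09, and from 2.82 to 26.4 in replicate 2 with a median of 7.44. Replicate 2 had the higher fold in 3301 regions (79.7%), with a median ratio of 1.24. Replicate 1 had the higher summit pileup in 3088 regions (74.5%), with medians of 69 and 49 fragments. The local background under the regions had medians of 10.2 and 5.74 fragments, so the list with more fragments at its summits also had the higher background. Spearman's rho across the regions was 0.68 for fold, 0.59 for pileup, 0.54 for peak width and 0.64 for local background. These describe regions called in both lists and leave out those called in 1.

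**Figure D2:**
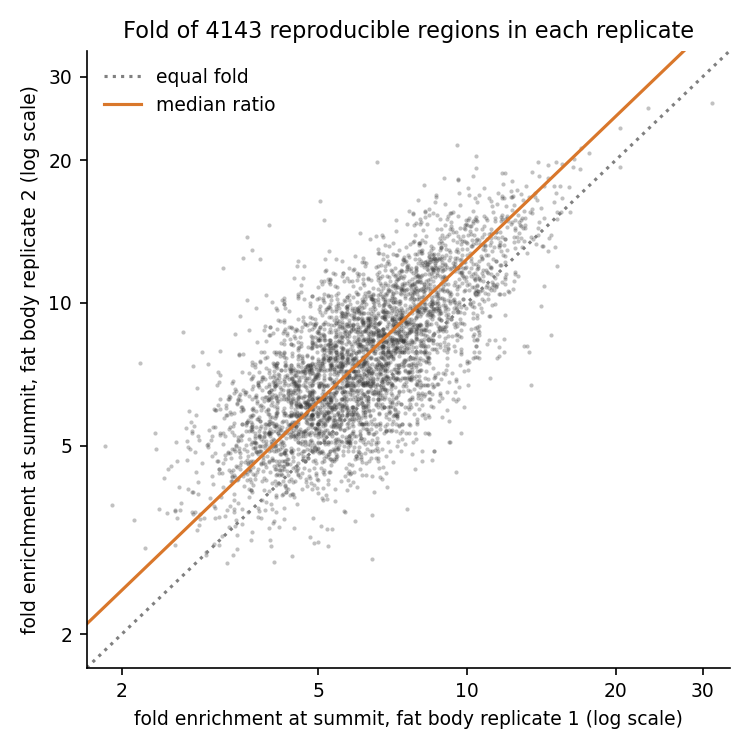
Fold enrichment at the summit in fat body replicate 1 (horizontal) and replicate 2 (vertical), both on log axes, 1 point per reproducible region. Most points lie above the dotted line of equal folds, around the solid line of the median ratio of 1.24.

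Most regions had similar scaled folds, and summits lay closest in the strong regions. After each fold was divided by its list's median over the regions, 3630 regions (87.6%) had replicates within 1.5 times of each other and 45 (1.09%) were over 2 times apart. With the regions in 10 bins by the lower of their folds, median summit distance went from 103 bp in the lowest bin to 32 bp in the highest, and median overlap from 66.0% to 85.0% of the combined span. Of the 100 regions highest in each replicate by fold, 47 were the same, and of the highest 500, 285 were.

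The strongest fat body region lies on a short unplaced sequence, number 216, at 15660 to 16077. It had folds of 31.3 and 26.4 in replicates 1 and 2, with 258 and 113 fragments at the same summit base. The furthest peak end on this sequence in any list is at 16.152 kb, so the region lies near the last position the lists reach. Its replicate 2 background, 3.32 fragments, was at the lowest value of that list. The second strongest, at 6625101 to 6625791 of sequence 25, had folds of 23.2 and 25.7 and pileups of 189 and 236 fragments. The third, at 13576123 to 13576822 of sequence 10, had folds of 20.4 and 23.4 and pileups of 189 and 180, with summits 4 bp apart. Regions were ranked by the lower of their replicate folds, so these 3 are high in both fat body libraries by choice. Each was also called in both brain lists.

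The region at 6070041 to 6070642 of sequence 15 had folds of 20.4 and 19.3, with pileups of 280 and 117 fragments. It is the only 1 of the 11 strongest that neither brain list called. Of all regions, 30.6% were called in neither brain list and 37.0% in both. The region at 6330764 to 6331188 of sequence 10, with folds of 16.4 and 19.3, was called in brain replicate 2 alone. The other 6 were at 4411087 to 4411909 of sequence 21, 2524208 to 2524685 of sequence 3, 929326 to 929864 of sequence 15, 9576609 to 9577122 of sequence 24, 13212194 to 13212733 of sequence 14 and 9943211 to 9944009 of sequence 19. Their folds ran from 15.6 to 17.7 in replicate 1 and from 16.6 to 21.2 in replicate 2, and both brain lists called all 6. These 11 regions are 418 to 823 bp wide, on either side of the median of 693 bp.

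The widest regions had many fragments over a high background and folds near or below the median. The widest, at 3771008 to 3774472 of sequence 6, spans 3465 bp. It had 943 fragments at its summit in replicate 1 and 274 in replicate 2, over local backgrounds of 162 and 65.7, and folds of 5.80 and 4.13. Its strongest summits lie 2421 bp apart, the most of any region. Replicate 1 had 1 peak there and replicate 2 had 2. Only the stronger replicate 2 peak enters this distance, so its other peak may lie nearer the replicate 1 summit. The next was 3323435 to 3326729 of sequence 20, 3295 bp, with folds of 4.58 and 5.36 and pileups of 457 and 229. Then came 980321 to 982890 of sequence 2 (folds 5.78 and 7.79), 3315454 to 3318017 of sequence 20 (5.20 and 5.64) and 9222728 to 9225274 of sequence 17 (4.50 and 5.51). In the last, the replicate 1 peak was 2547 bp wide and the replicate 2 peak 517 bp.

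Regions of 2 kb or more numbered 32, and 6 of them lie on sequence 20, the most of any sequence. Over the 32, the median local background was 38.4 fragments in replicate 1 and 11.4 in replicate 2, against 10.2 and 5.74 over all 4143. Of the 6 on sequence 20, 5 follow each other within 72.6 kb, from 3254096 to 3326729, with no other region between them. This stretch was singled out after its values were seen. Its regions are 2228 to 3295 bp wide, with pileups from 325 to 490 fragments in replicate 1 and from 72 to 247 in replicate 2. Their folds were 2.71 to 5.20 and 4.66 to 6.14, below both lists' region medians. Brain replicate 1 called none of the 5 and brain replicate 2 called 2. The shares over all regions were 57.2% and 49.3%. With all regions in 10 bins by the lower of their folds, they were 32.0% and 28.9% in the lowest bin. In the fourth lowest they were 48.6% and 39.4%. Counts of 5 are too small to set this stretch apart.

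The weakest regions, picked after their values were seen, stood on high background in both libraries. A very low fold can pass the peak caller's limit only with many fragments over a high background. The high replicate 1 background of these regions thus followed from picking them by low fold. At 15559044 to 15559653 of sequence 23, the lowest of all by fold, replicate 1 had 473 fragments over a background of 255 (fold 1.85). Replicate 2 had 83 over 15.9 there (fold 4.98). The next region along, at 15560142 to 15562185, had 425 over 200 in replicate 1 and 51 over 13.9 in replicate 2. The region between them in rank, at 2796621 to 2797063 of sequence 5, had 85 over 43.9 (fold 1.92) and 40 over 9.93 (fold 3.75). The medians over all regions were 10.2 and 5.74.

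A few regions were much stronger in 1 fat body library than in the other. Leaning most to replicate 2 was 9487557 to 9488186 of sequence 7, with folds of 3.59 and 13.8 and pileups of 32 and 144, a scaled ratio of 3.14. Next were 7772530 to 7773338 of sequence 9 (folds 3.21 and 11.9), 5172885 to 5173307 of sequence 26 (3.97 and 14.6), 3466325 to 3466992 of sequence 16 (3.52 and 12.4) and 6271303 to 6271781 of sequence 22 (3.67 and 12.9). Brain replicate 1 called all 5, and brain replicate 2 called all but the last. Over all regions the brain lists called 57.2% and 49.3%, and counts of 5 picked regions are too small to compare with these.

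Leaning most to replicate 1 was 12304979 to 12306327 of sequence 23, with folds of 6.43 and 2.88, a scaled ratio of 2.73. Its pileups were close, 72 and 66, and its backgrounds were not, 10.4 and 22.3 fragments. Next were 2374640 to 2375539 of sequence 12 (folds 9.50 and 4.40), 9619187 to 9620297 of sequence 4 (7.57 and 3.67), 21233 to 22517 of the short sequence 35 (13.5 and 6.72) and 9509600 to 9510306 of sequence 4 (9.74 and 5.33). Brain replicate 1 called only the one on sequence 35 among these 5, and brain replicate 2 only the one on sequence 12. The shares over all regions were 57.2% and 49.3%, and counts of 5 do not set regions of either direction apart.

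Neighbouring regions were separated by a median gap of 43.3 kb, counted from the end of 1 region to the start of the next on the same sequence. Over 4111 gaps, the shortest was 227 bp, 25% were at most 15.6 kb and 25% at least 114 kb. The median gap was 15.9 kb in the full list of replicate 1 and 32.9 kb in that of replicate 2, and 36.9 and 8.93 kb in brain replicates 1 and 2. A median gap also depends on the number of peaks, which differs between the lists. Most gaps, 2967 of them (72.2%), were at most 100 kb, and 163 were over 500 kb.

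Short gaps did not fall off smoothly. There were 67 gaps of at most 1 kb, 53 from 1 to 2 kb, 41 from 2 to 3 kb and 32 from 3 to 4 kb, and then 71 from 4 to 5 kb and 84 from 5 to 6 kb. In each full list, too, the count from 3 to 4 kb was below those of the bins on both sides, with 198 gaps against 403 from 5 to 6 kb in fat body replicate 1 and 57 against 155 in replicate 2. In brain the counts were 61 against 187 and 1557 against 2295. The local background moved with spacing. Regions with their nearest neighbour within 1 kb had median backgrounds of 13.9 and 7.99 fragments in replicates 1 and 2. Those with it over 1 and up to 3 kb away had 15.5 and 8.16, and those over 3 and up to 5 kb away 14.1 and 7.84. Those over 5 and up to 10 kb away had 11.4 and 5.77, and those over 100 kb away 7.66 and 5.16. Background was thus highest from 1 to 3 kb, near its level within 1 kb from 3 to 5 kb, and lower beyond. Median folds were 5.00 and 5.75 within 1 kb and 5.17 and 5.89 from 1 to 3 kb. They were 5.22 and 6.41 from 3 to 5 kb, and 6.66 and 8.24 over 100 kb. The part of the background in the low point was not tested.

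**Figure D3:**
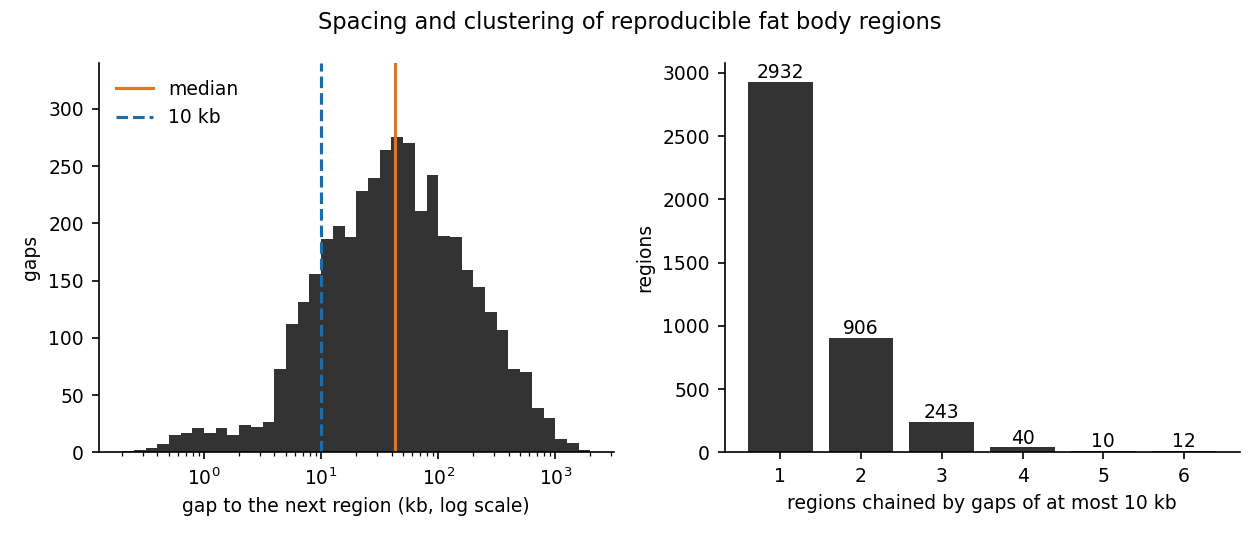
Left, gaps between neighbouring reproducible regions (kb, log axis) with the median of 43.3 kb and the 10 kb limit marked. Right, number of regions that stand alone (1) or in chains of 2 to 6 with gaps of at most 10 kb; 2932 of 4143 stand alone.

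Most regions stood alone. When regions with gaps of at most 10 kb were chained, 2932 (70.8%) had no neighbour, 906 (21.9%) formed 453 pairs, and 305 (7.36%) lay in 95 clusters of 3 or more, on 25 of the 28 long sequences. These clusters spanned a median of 14.4 kb. With only peaks of a −log10 q of at least 20, 2.34% of the regions left were in such clusters. In the full lists, 32.8% of replicate 1 peaks and 10.4% of replicate 2 peaks lay in such clusters, and 9.16% and 56.4% of those of brain replicates 1 and 2. All these shares depend on the number of regions or peaks that are chained, which differs between the sets. Clustered regions had lower folds than lone ones, with medians of 5.23 against 6.24 in replicate 1 and 6.56 against 7.75 in replicate 2. Their pileups were higher, 89 against 67 and 56 against 48 fragments, and so were their backgrounds, 15.2 against 9.29 and 7.21 against 5.44. Width was alike, 692 and 696.5 bp, and so was the summit distance, 56 and 59 bp.

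Among the most populous clusters, 2 hold 6 regions each. The first spans 11074224 to 11104687 of sequence 21, with folds from 3.70 to 9.49 in replicate 1 and from 4.13 to 8.54 in replicate 2. Its strongest member in both replicates is the last, at 11103661 to 11104687. Brain replicate 1 called all 6 and brain replicate 2 called 3. The cluster at 7591218 to 7631247 of sequence 19 had folds from 3.98 to 6.91 and from 4.49 to 9.12, highest in both replicates at 7600909 to 7601448. Each brain list called 2 of its 6 regions. Over all 305 clustered regions the brain lists called 53.8% and 45.2%, and counts of 6 are too small to tell these clusters apart.

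Each of the next 2 clusters holds 5 regions. That at 17184427 to 17204238 of sequence 24 had folds of 3.55 to 8.81 and 4.98 to 9.02, and that at 6668704 to 6693930 of sequence 8 had 3.45 to 8.22 and 4.87 to 11.4. On sequence 8 the last pair of regions is separated by 654 bp, with pileups of 197 and 198 fragments in replicate 1 and 92 and 146 in replicate 2. The tightest cluster of 4 lies at 6536866 to 6547276 of sequence 9, where folds went from 3.34 to 11.9 and from 4.71 to 10.96. Strong and weak regions thus stood side by side. Across all 663 neighbours with a gap of at most 10 kb, Spearman's rho of their folds was 0.12; such neighbours share libraries and local background.

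The regions also left long stretches empty. In windows of 100 kb, 2273 of 4429 (51.3%) held no region, the fullest held 8, and 13.4% of windows held 50% of all regions. The ratio of variance to mean of the counts per window was 1.69, against 2.87 and 1.77 in the full lists of replicates 1 and 2 and 1.38 and 1.26 in the brain lists. Peaks of replicate 1 alone had a ratio of 2.36 and those of replicate 2 alone 1.24. These ratios depend on the number of peaks per window, which differs between lists.

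The longest stretch without a reproducible region ran for 1803 kb, from 15332120 to 17134627 of sequence 12. It held 4 peaks of fat body replicate 1 and 2 of replicate 2, and 13 and 156 peaks of brain replicates 1 and 2. The next were 1692 kb of sequence 23 from 5467490, 1479 kb of sequence 25 from 1925910, 1467 kb of sequence 24 from 3865392 and 1463 kb of sequence 18 from 14096161. The stretch on sequence 23 held 13 replicate 2 peaks and 3 of replicate 1, although replicate 1 has the longer list, and that on sequence 25 held 11 of replicate 1 and 7 of replicate 2. That on sequence 24 held 2 of replicate 1 and 0 of replicate 2, and that on sequence 18 held 3 and 1. The stretches were picked for lacking regions, so no peak in them is shared by the replicates.

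Few single-replicate peaks lay within 1 kb of a region, and few regions lay within 1 kb of another. Of 4393 replicate 1 peaks outside the regions, 135 (3.07%) lay within 1 kb of a region and 34.4% within 10 kb, with a median distance of 17.2 kb. Of 1740 such replicate 2 peaks, 40 (2.30%) lay within 1 kb and 22.0% within 10 kb, with a median of 29.6 kb. Among the 4143 regions themselves, 133 had another region within 1 kb, and 2932 (70.8%) had no other region within 10 kb.

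Region density differed 2.74-fold between the numbered sequences. Length was taken as the furthest peak end in any of the 4 lists, and the 28 long sequences together span 444 Mb and hold 4138 regions, 9.32 per Mb. Sequence 10 was densest at 13.4 regions per Mb (236 regions), followed by sequence 5 at 12.2 (233), sequence 15 at 11.8 (217), and sequences 8 and 20 at 11.4 each (186 and 141). The sparsest was sequence 1 at 4.90 (101 regions on 20.6 Mb), then sequence 28 at 5.97 (63), sequence 26 at 6.89 (79), sequence 2 at 7.21 (60) and sequence 27 at 7.41 (81). By convention the silkworm chromosome numbered 1 is the Z sex chromosome, carried in a single copy by females; the files state neither that sequence 1 is that chromosome nor the sex of the animals.

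The replicates gave nearly the same order of densities. Relative to the mean of its own list, the peak density of sequence 10 was 1.41 in replicate 1 and 1.36 in replicate 2 (mean 1.38 ± 0.03, SD, n = 2), and that of sequence 1 was 0.595 and 0.571 (0.583 ± 0.017). Sequence 28 had 0.551 and 0.614 (0.583 ± 0.044), which overlaps sequence 1. The SD between replicates had a median of 0.028 over the 28 sequences and was at most 0.109, on sequence 15 (1.40 and 1.24). The SD of the means across sequences was 0.203, larger than any of these. Both replicates were above their mean on 11 sequences, both below on 14, and split on 3. Across the 28 sequences, Spearman's rho between the lists was 0.93, and 0.58 between the peaks found in only 1 replicate; all lists share sequence lengths and any sequence content that affects mapping.

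The brain lists gave other relative densities on some of these sequences. Sequence 1 had a relative density of 0.895 in brain replicate 1 and 0.662 in brain replicate 2, so it was below the mean in all 4 lists. Sequence 28 was low in brain replicate 1 at 0.764 and the densest of all in brain replicate 2, at 1.29. Sequence 10 was the densest in brain replicate 1 at 1.28 and below the mean in brain replicate 2, at 0.928. Across the 28 sequences, Spearman's rho of region density was 0.78 with brain replicate 1 and -0.36 with brain replicate 2. Region density had a rho of 0.32 with sequence length. Among the 5 sparsest, sequences 2, 28, 27 and 26 were the shortest of the 28, at 8.32, 10.6, 10.9 and 11.5 Mb. Sequence 1, the sparsest, was the 2nd longest at 20.6 Mb.

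**Figure D4:**
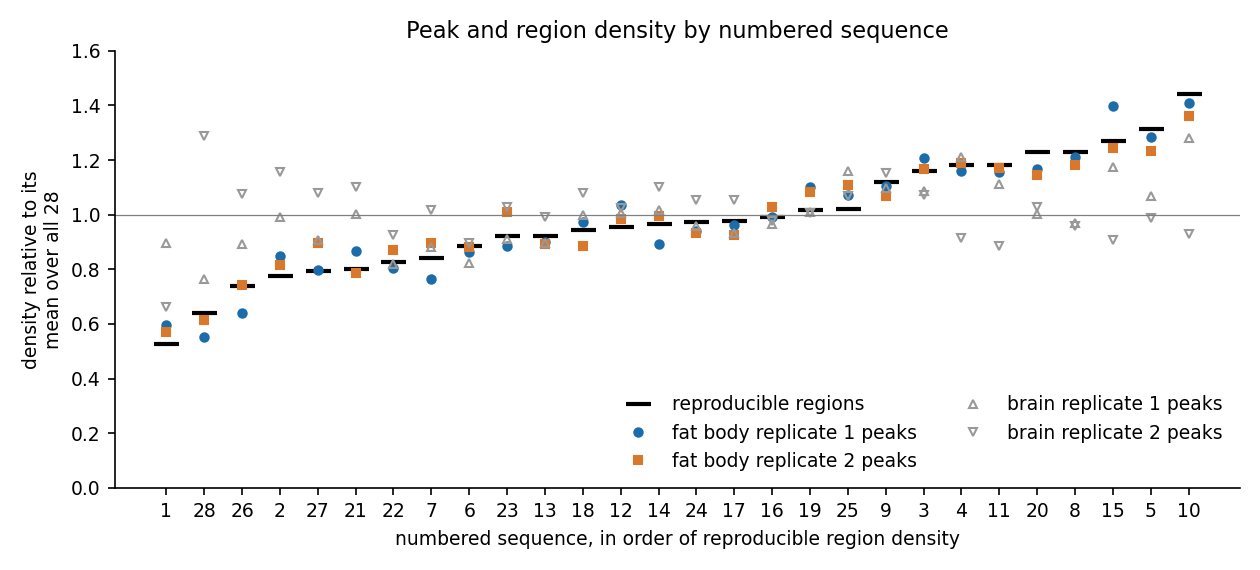
Density on each of the 28 long sequences relative to its mean over all 28, for reproducible fat body regions (horizontal marks), peaks of each fat body replicate (filled points) and peaks of each brain replicate (open points), ordered by region density. The fat body points lie close to each other, from about sequence 1 at 0.595 and 0.571 to sequence 10 at 1.41 and 1.36, while brain replicate 2 is above them on sequence 28 at 1.29 and below them on sequence 10 at 0.928.

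Width and fold varied over a narrower range of ratios across sequences than density did. The median region width ran from 631 bp on sequence 26 to 740 bp on sequence 3. Median folds ran from 5.65 to 6.89 in replicate 1 and from 6.91 to 8.27 in replicate 2, and on sequence 1, the sparsest, they were 6.32 and 8.27. The share of replicate 1 peaks that recurred was lowest on sequence 1, at 42.8%, and highest on sequence 26, at 56.7%. In replicate 2 it ran from 62.3% on sequence 27 to 75.4% on sequence 20. The median gap was 85.4 kb on sequence 1 and 29.8 kb on sequence 5. Sequences 1, 2 and 26 held no cluster of 3 or more, and sequence 21 had the highest share of regions in clusters, 15.8%, although its density was among the lower ones at 7.46 per Mb.

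Along the long sequences, the central part held more regions than its share of the length. The outermost 5% at either end, together 10% of the length, held 426 regions (10.3%), and the next 5% held 345 (8.34%). The central 20% of the length held 984 (23.8%). Peaks of replicate 2 alone had 13.3% in the outermost and 20.3% in the central part, and peaks of replicate 1 alone 8.55% and 23.2%.

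Short unplaced sequences held 5 of the 4143 regions, on sequences 35, 43, 58 and 216, and the mitochondrial genome held none. Few fat body peaks lay on short sequences at all, 14 of 8556 in replicate 1 and 6 of 5894 in replicate 2. Besides those on 216 and 35 named above, sequence 43 had regions at 23520 to 24493 (folds 6.77 and 7.34) and 58664 to 59174 (4.95 and 4.91), and sequence 58 had 37888 to 38406 (5.44 and 6.49). The 2 on sequence 43 had nearly equal pileups in the replicates, 52 and 50 fragments and 76 and 75.

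As context, 2368 of the 4143 regions (57.2%) overlapped a peak of brain replicate 1, where 32.9% of all merged fat body regions did. Brain replicate 2 overlapped 2043 (49.3%, against 33.5%) and both lists overlapped 1534 (37.0%, against 20.0%). Brain replicate 2 has 33925 peaks and brain replicate 1 has 6759, so the shares of the brain lists do not compare directly. Fat body regions of a single replicate were called less often, 10.6% and 19.6% by brain replicates 1 and 2 for those of replicate 1, and 31.3% and 31.2% for those of replicate 2. Regions called in both brain lists had median folds of 7.17 and 9.04 and a median width of 754.5 bp, and the 1266 called in neither had folds of 5.24 and 6.11 and a width of 663.5 bp. With the regions in 10 bins by the lower of their folds, brain replicate 1 called 32.0% in the lowest bin and 86.0% in the highest, and brain replicate 2 28.9% and 80.5%. The strongest fat body regions were thus mostly also called in brain. The antibody in the peak names differs between the fat body lists and brain replicate 1, and its part in these shares was not tested.

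Regions that leaned to fat body replicate 2 were called more often in brain replicate 1. With the regions in 10 bins by scaled fold ratio, from those highest in fat body replicate 1 to those highest in replicate 2, it called 166 of 415 (40.0%) in the first bin, 53.1% in the third, 62.2% in the fifth and 273 of 415 (65.8%) in the last. Brain replicate 2 showed no such course, with 42.9% in the first bin, 55.3% in the third, 49.2% in the fifth and 47.0% in the last. Because the bins were cut by the ratio of the folds, replicate 2 folds went up over them, from a median of 5.56 to 9.17. Replicate 1 folds went down, from 7.18 to 4.60, for the same reason. The part of fold in the course was not tested.

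**Figure D5:**
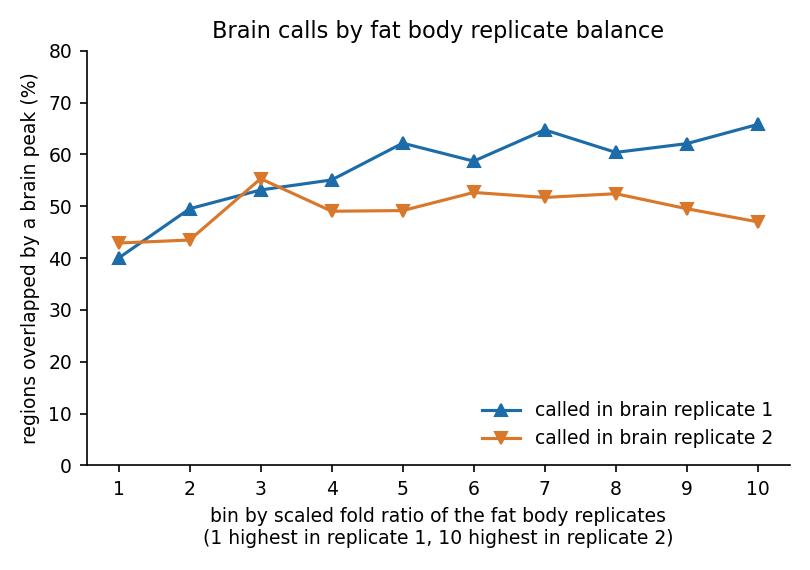
Share of reproducible fat body regions overlapped by a peak of brain replicate 1 or 2 (vertical axis, %), in 10 equal bins by the scaled ratio of the fat body folds. The share called in brain replicate 1 goes from 40.0% in bin 1 to 65.8% in bin 10, and that of brain replicate 2 stays between 42.9% and 55.3%.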

How the data were processed

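Peak lists in narrowPeak layout, 1 per library and none pooled, were used for fat body (2 libraries) and brain (2) at stage L5D3. Per the submitters' processing notes, MACS2 2.1.0 and deepTools 3.3.0 served the study, with Bowtie2, Trim Galore and Picard; order, settings and genome build were not in the sources used. The deposited fold is a ratio over the caller's local background, −log10 p and −log10 q were deposited beside it, and the deposited score equals that −log10 q times 10, cut to a whole number, in 99.95% and 99.93% of fat body peaks. Fat body lists start at −log10 q values of 5.06 and 5.21. Summit pileup and background were solved from fold, as (pileup + 1)/(background + 1), and p as a Poisson upper tail. This gave whole pileups in 100% of peaks at a tolerance of 0.02. Read totals are unknown. The solving and merging steps were tested on simulated data. Python 3.11.15, numpy 2.4.6, pandas 2.3.3 and scipy 1.17.1 were used. No test between tissues was run. Named regions were the 10 highest on long sequences by the lower of the replicate folds (with any on short sequences ranking among them), the 5 widest, the 5 most populous clusters, the 5 longest stretches, the 5 densest and sparsest sequences, the 5 most unequal regions in each direction, and the pairs nearest the overlap rule; the weakest regions and the stretch of sequence 20 were added after their values were seen. The regions and these lists were chosen with earlier results of these data known. Alternatives were other overlap rules, limits on −log10 q, equal list lengths, long sequences only, other cluster and window sizes, and each replicate alone.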

Additional observations from a re-analysis of the deposited data

How the results depend on the processing

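No paired analysis was possible because no result comes from a test and replicate numbers name libraries only. Values were compared with the spread between the single fat body lists (SD, n = 2), shares of peaks with their binomial interval, and counts with a factor of 1.5. For the share in clusters this SD was 15.8 against a value of 7.36, so no fall in it could count as moved. The binomial interval covers counting error only, so small shifts in shares of peaks can count as moved. Requiring 50% of the shorter peak, or long sequences only, moved none of the 9 results run. Summits within 250 bp gave shares of 43.4% and 63.0% of replicate 1 and 2 peaks and a median width of 668 bp. A −log10 q of at least 10 gave 50.3% of replicate 1 peaks, a width of 704 bp and a density ratio of 3.02. A limit of 20, which leaves fewer peaks, gave 2267 regions, 51.2% and 72.0% of peaks, a width of 746 bp, a median gap of 85636 bp, 2.34% in clusters, a density ratio of 3.20, and 69.8% and 63.1% called in brain replicates 1 and 2. Equal list lengths gave 60.3% of either list, a width of 713 bp and a density ratio of 3.04. A cluster gap of 20 kb put 23.6% of regions in clusters of 3 or more; one of 5 kb put 1.09%. With 1 replicate alone, all its peaks stand in for regions: 5894 to 8556 peaks, widths of 515.5 to 520 bp, median gaps of 15894 to 32920 bp, 10.4% to 32.8% in clusters, density ratios of 2.38 to 2.55, and 33.2% to 49.5% and 33.8% to 43.2% called in brain replicates 1 and 2. Summit pileups in the regions were as low as 22 and 18 fragments. The cause of the shifts was not tested.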
